A study of Mus musculus with 12 samples.

Results

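The 39 genes described here act in mitosis and chromosome segregation, and all 39 were matched by symbol among 55487 gene identifiers of the count table. They form a list by function, with no measured value in the rule that names them, but the list was chosen with earlier results of these data known. In each comparison, values per library are given for the genes with the 5 smallest p-values and the smallest p-value of each role, and other genes given by library were chosen after their values were seen. The 12 RNA-seq libraries came from CD8+ T cells of C57BL/6 mouse splenocytes under 4 treatments with 3 libraries each, namely IL-12 80%TCM, IL-12, IL-2 80%TCM and IL-2. All 4 groups share the strain, the cell type and the presence of 1 of these cytokines, and none was left without a cytokine. The series title speaks of tumor-like conditions, but the labels do not spell out TCM and give no dose, culture time, activation step or number of animals. No label says that libraries came from separate animals or cultures, so the p-values cover the spread among libraries within groups, which may be technical. The fit shares that spread over all 4 groups, so it is not the spread of the 2 groups compared alone. Of the extraction, the labels' protocol names mouse livers after vehicle or bortezomib, which no sample label mentions.

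CD8+ T cells that are activated and kept in cytokine divide rapidly, and IL-2 is the classical growth factor of such cultures, whereas IL-12 drives effector differentiation. A dividing cell makes most of its mitotic proteins anew in G2 phase, from genes that are transcribed together, and destroys many of them when it leaves mitosis. Cyclins with CDK1 start mitosis, the spindle and the kinetochores align the chromosomes, the spindle checkpoint holds back the anaphase-promoting complex (APC/C) until every chromosome is attached, and condensins and topoisomerase II shape the chromosomes. Levels of these mRNAs in a bulk culture therefore depend on how many cells are in G2 phase or mitosis as well as on the RNA of each such cell, and the 2 cannot be told apart here.

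Libraries held 19500568 to 26007717 gene counts, apart from replicates 1 and 2 of the IL-12 group with 49638920 and 42349121. All 39 genes passed the filter on low counts, with at least 709 counts in every library, and were tested among 15897 genes. Levels are given as CPM, counts per 1e+06 counts, on library sizes scaled by the trimmed mean of M-values (TMM), and a gene is called higher or lower where edgeR's quasi-likelihood test gave a p-value below 0.05 after Benjamini-Hochberg adjustment across the 15897 genes. The CD8 T cell markers (Cd8a, Cd8b1, Cd3d, Cd3e, Cd3g, Trac and Cd2) summed to 3170 to 3900 CPM in every library. The markers of CD4 T cells, B cells, myeloid cells, NK cells and erythroid cells summed to at most 30.1 CPM each. Replicate 3 of the IL-2 80%TCM group and replicate 3 of the IL-2 group stood apart from their fellow libraries, with a summed level of 14 glycolysis and hypoxia genes of 18400 and 16900 CPM, against 5730 and 5980 CPM in the other IL-2 80%TCM libraries and 5700 and 5850 CPM in the other IL-2 libraries. Counts for the 39 genes and for the other gene lists are given with and without these 2 libraries.

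**Figure D1:**
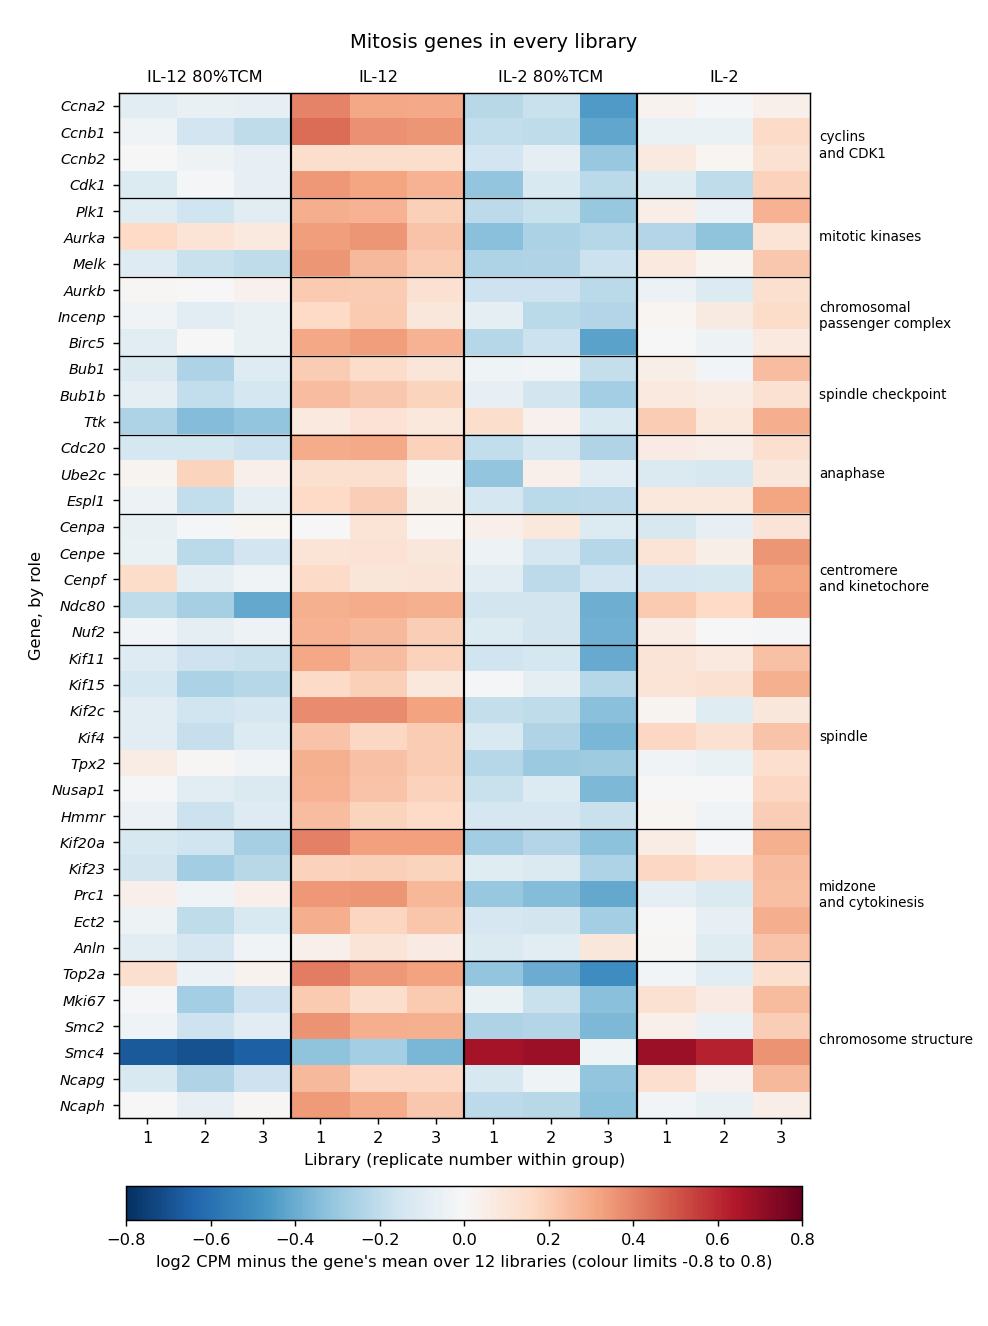
Level of each of the 39 genes in every library, as log2 CPM minus the gene's mean over 12 libraries (colour), with genes by role down the page and libraries grouped by treatment across it. Differences run from -0.70 to 0.69. Most rows are red under IL-12 and blue under IL-12 80%TCM and IL-2 80%TCM, and Smc4 is the row in which both IL-2 groups lie above both IL-12 groups.

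The first question was how TCM moved these genes within each cytokine. With TCM in IL-12, 32 of the 39 genes fell and none rose, which is 82.1% of them, while 14.2% of all genes tested fell and 14.8% rose, and 23.8% fell among the 4565 genes at least as abundant as the lowest of the 39. With TCM in IL-2, 28 of the 39 fell and none rose, which is 71.8%, against 7.82% of all genes tested that fell (6.73% rose) and 12% of the genes at least as abundant. The median log2 fold change of the 39 was -0.33 in IL-12, a ratio of 0.796, and -0.27 in IL-2, a ratio of 0.827, and the median of all genes was 0.01 and 0.00 in the same comparisons. The decreases were small: called genes were 1.13-fold to 1.50-fold lower in IL-12 and 1.16-fold to 1.37-fold lower in IL-2. In 36 of the 39 genes all 3 IL-12 80%TCM libraries lay below all 3 IL-12 libraries, as did 25.3% of all genes, and in 31 all 3 IL-2 80%TCM libraries lay below all 3 IL-2 libraries, as did 14.3% of all genes. The 28 genes that fell in IL-2 also fell in IL-12, so the shared genes are 87.5% of the genes called in IL-12 and 100% of those called in IL-2. The same overlap was not counted over all genes. Both lists of calls rest on the same spread per gene, so they are not independent, and the overlap is not read as a trait of the 39.

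Summed over the 39 genes, the level was 9680, 8970 and 9220 CPM in the IL-12 80%TCM libraries, against 11800, 11500 and 11300 CPM in the IL-12 libraries. It was 9660, 9490 and 8240 CPM in the IL-2 80%TCM libraries, against 10900, 10500 and 11600 CPM in the IL-2 libraries. The sums did not overlap in either cytokine. A fit on the IL-2 groups alone called 8 of the 39 genes lower in IL-2, where it called 2.19% of all genes lower. They were Melk, Cdc20, Espl1, Ndc80, Kif4, Kif20a, Kif23 and Top2a. The other IL-2 calls were lost there, at edgeR adjusted p of 0.056 to 0.18. The fit over all 12 libraries shares 1 spread per gene over all 4 groups. In the IL-2 groups, pairs with replicate 3 differed at a chi-square per degree of freedom of 28.47 to 45.43. Pairs in the IL-12 groups had 2.63 to 5.51. With both of the replicates 3 of the IL-2 groups left out, 27 were lower and 1 higher (Cenpa), at a median log2 fold change of -0.17, where 12.4% of all genes were lower and 12.3% higher. The same fit called 36 lower and none higher in IL-12, where 22.9% of all genes were lower and 23.1% higher. With each of the 12 libraries left out in turn, 29 of the 32 calls in IL-12 and 22 of the 28 calls in IL-2 held throughout, and the genes that lost theirs are named below.

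**Figure D2:**
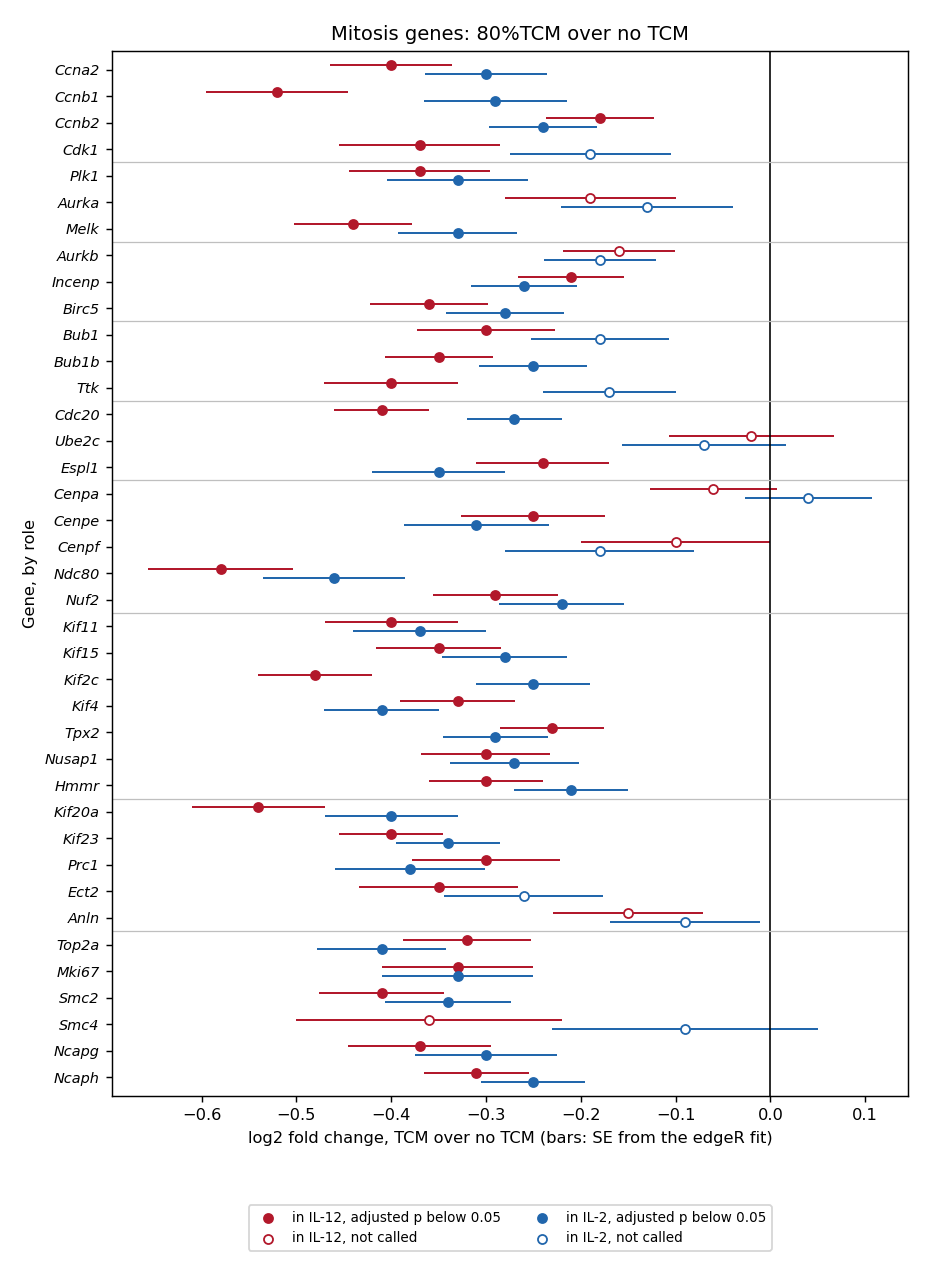
Log2 fold change of each of the 39 genes, TCM over no TCM (x axis, bars are the standard error of the fit), in IL-12 (red, upper point of each row) and in IL-2 (blue, lower point). Filled points passed the test (32 in IL-12, 28 in IL-2). The points run from -0.58 to 0.04, and Cenpa and Ube2c lie nearest 0.

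Genes of the G2/M program share a promoter layout, in which CCAAT boxes, bound by the factor NF-Y, lie upstream of a cell cycle genes homology region (CHR), bound by the DREAM and MuvB complexes. Promoters from 250 bases before to 50 after the RefSeq start, on build GRCm38.p6, were at hand for 33 of the 39 genes, and none was used for Ccna2, Aurkb, Incenp, Tpx2, Kif20a and Smc4. A CHR, searched as TTTGAA or TTCGAA on both strands, was present in 26 of the 33 (78.8%) and in 21.7% of 27025 genes with a promoter in the table. CCAAT, on either strand, was present in 24 of the 33 (72.7%) and in 41.1% of all, and both elements together in 22 (66.7%) and in 8.61% of all. GGCGG was found in 90.9% of the 33 and 51.2% of all, and the E2F motif TTTGGCGC in 3.03% and 0.585%. The CHR was present in 17 of the 24 genes with a promoter that fell with TCM in both cytokines and in all 5 that were called in neither. The promoters of 6 genes are printed as examples, from 120 bases before to 25 after the start, 5′ to 3′ on the strand of the gene, with each CCAAT box and each CHR, read on either strand, in capitals. They were chosen after the values were seen: Cdc20, Ccnb2, Kif23 and Top2a fell with TCM in both cytokines, and Ube2c and Cenpa were called in neither.
Cdc20 (chr4:118437319-118437463, minus strand): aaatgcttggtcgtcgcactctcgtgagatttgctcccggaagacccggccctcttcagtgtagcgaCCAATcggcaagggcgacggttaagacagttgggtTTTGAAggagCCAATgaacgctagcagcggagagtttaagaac
Ccnb2 (chr9:70421530-70421674, minus strand): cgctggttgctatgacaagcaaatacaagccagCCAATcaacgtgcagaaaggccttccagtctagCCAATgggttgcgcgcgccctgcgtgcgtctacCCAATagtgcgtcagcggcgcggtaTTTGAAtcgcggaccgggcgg
Kif23 (chr9:61946775-61946919, minus strand): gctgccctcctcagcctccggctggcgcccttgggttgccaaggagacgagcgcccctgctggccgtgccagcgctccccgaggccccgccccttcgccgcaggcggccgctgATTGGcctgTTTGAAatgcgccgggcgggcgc
Top2a (chr11:99024165-99024309, minus strand): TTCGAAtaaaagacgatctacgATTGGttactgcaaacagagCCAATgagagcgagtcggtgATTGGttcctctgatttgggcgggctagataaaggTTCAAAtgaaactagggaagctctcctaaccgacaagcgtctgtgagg
Ube2c (chr2:164769809-164769953, plus strand): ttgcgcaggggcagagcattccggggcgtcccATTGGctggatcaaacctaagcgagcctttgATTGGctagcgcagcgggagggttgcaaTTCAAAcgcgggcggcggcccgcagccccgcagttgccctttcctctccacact
Cenpa (chr5:30666766-30666910, plus strand): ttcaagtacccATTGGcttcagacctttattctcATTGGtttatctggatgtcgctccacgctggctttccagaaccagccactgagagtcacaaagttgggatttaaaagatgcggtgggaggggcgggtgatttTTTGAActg
Not every marked match keeps to the layout. In Cdc20 the CCAAT box that begins 8 bases before the start lies downstream of the CHR, which begins at 18. In Top2a the CHR that begins 120 bases before the start lies upstream of every printed CCAAT box. A match of letters is a description of the sequence and was not tested as a binding site.

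Among the cyclins and CDK1, which start mitosis, all 4 genes fell with TCM in IL-12 and 3 of 4 in IL-2. Ccnb1, which encodes the B-type cyclin that drives entry into mitosis, had 166, 152 and 147 CPM in IL-12 80%TCM, against 231, 218 and 216 CPM in IL-12. In the other cytokine it had 148, 147 and 127 CPM in IL-2 80%TCM, against 163, 163 and 188 CPM in IL-2. Neither pair of groups overlapped, and Ccnb1 was 1.43-fold lower in IL-12 (log2 fold change -0.52 ± 0.075, edgeR adjusted p = 3.5e-04) and 1.22-fold lower in IL-2 (log2 fold change -0.29 ± 0.075, adjusted p = 0.023). The IL-2 call of Ccnb1 was lost without IL-2 replicate 3, at a log2 fold change of -0.22 and an adjusted p of 0.055, where the alternatives ran from 0.0022 to 0.11. Ccna2, the A-type cyclin of S and G2 phases, had 245, 250 and 249 CPM in IL-12 80%TCM, against 342, 322 and 321 CPM in IL-12, and 223, 230 and 190 CPM in IL-2 80%TCM, against 265, 258 and 268 CPM in IL-2. Again no libraries overlapped, with log2 fold change -0.40 ± 0.064 (edgeR adjusted p = 6.0e-04) in IL-12 and log2 fold change -0.30 ± 0.064 (adjusted p = 0.0078) in IL-2. Ccnb2 had the smallest change of the 4 in IL-12, with log2 fold change -0.18 ± 0.057 in IL-12 and log2 fold change -0.24 ± 0.057 in IL-2, and its calls (edgeR adjusted p = 0.034 and 0.013) were lost without any of the 3 IL-12 libraries or IL-12 80%TCM replicate 2 or 3 (adjusted p 0.071 to 0.095) in IL-12 and without IL-2 replicate 1 (adjusted p = 0.056, alternatives 0.001 to 0.11) in IL-2. Cdk1, the kinase itself, had 111, 119 and 114 CPM in IL-12 80%TCM, against 152, 149 and 145 CPM in IL-12, and fell (log2 fold change -0.37 ± 0.085, edgeR adjusted p = 0.0059). In IL-2 it had 95.9, 110 and 103 CPM in IL-2 80%TCM, against 112, 104 and 136 CPM in IL-2, which overlapped and did not pass (edgeR adjusted p = 0.17).

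Of the 3 mitotic kinases, Melk and Plk1 fell in both cytokines and Aurka was called in neither. Melk, a kinase that peaks in mitosis, had 48.4, 45.8 and 45.1 CPM in IL-12 80%TCM, against 66.4, 62.2 and 59.8 CPM in IL-12. It had 43.8, 44.0 and 46.1 CPM in IL-2 80%TCM, against 54.9, 52.8 and 60.2 CPM in IL-2. All libraries with TCM lay below those without, and the log2 fold changes were -0.44 ± 0.062 in IL-12 and -0.33 ± 0.063 in IL-2 (edgeR adjusted p = 3.0e-04 and 0.0045). Plk1, the Polo-like kinase needed for a bipolar spindle, was 1.29-fold lower in IL-12 (edgeR adjusted p = 0.0027) and 1.26-fold lower in IL-2 (adjusted p = 0.0098). Aurka, the Aurora kinase of centrosomes, had 92.0, 88.8 and 86.8 CPM in IL-12 80%TCM, against 104, 105 and 96.3 CPM in IL-12, which did not overlap but missed the threshold (log2 fold change -0.19 ± 0.09, edgeR adjusted p = 0.13). Without IL-2 replicate 3 Aurka passed in IL-12 at an adjusted p of 0.0094, within a range of 4.7e-04 to 0.22 over the alternatives. In IL-2 Aurka had 65.4, 69.1 and 70.3 CPM in IL-2 80%TCM, against 70.0, 65.8 and 89.0 CPM in IL-2, and the groups overlapped.

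In the chromosomal passenger complex, which corrects faulty attachments of chromosomes to the spindle, Birc5 (survivin) and Incenp fell in both cytokines. Birc5 had 171, 181 and 174 CPM in IL-12 80%TCM, against 225, 229 and 220 CPM in IL-12. Under IL-2 Birc5 had 155, 161 and 135 CPM in IL-2 80%TCM, against 182, 176 and 191 CPM in IL-2. The groups were apart each time, with log2 fold change -0.36 ± 0.062 (edgeR adjusted p = 0.0011) and log2 fold change -0.28 ± 0.062 (adjusted p = 0.0092). Incenp, the scaffold of the complex, had 313, 284 and 280 CPM in IL-2 80%TCM, against 334, 347 and 366 CPM in IL-2. In IL-12 Incenp was 1.16-fold lower, and it passed in both (edgeR adjusted p = 0.013 in IL-12 and 0.0091 in IL-2). Aurkb, the kinase of the complex, lay below in all 3 libraries with TCM in each cytokine but missed the threshold, with log2 fold change -0.16 ± 0.059 (edgeR adjusted p = 0.054) in IL-12 and log2 fold change -0.18 ± 0.059 (adjusted p = 0.062) in IL-2. It passed in 13 of 20 alternatives in IL-12 and in 3 of 21 in IL-2, among them without IL-2 replicate 2 (adjusted p = 0.026 in IL-12 and 0.038 in IL-2, over ranges of 5.3e-04 to 0.11 and 0.014 to 0.21).

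All 3 spindle checkpoint genes fell in IL-12, and 1 of the 3 fell in IL-2. Bub1b encodes BubR1, a part of the complex that inhibits the APC/C. It had 205, 188 and 196 CPM in IL-12 80%TCM, against 256, 251 and 244 CPM in IL-12. It had 206, 195 and 179 CPM in IL-2 80%TCM, against 228, 225 and 235 CPM in IL-2. No libraries overlapped, and the changes were -0.35 ± 0.057 in IL-12 and -0.25 ± 0.057 in IL-2 on the log2 scale (edgeR adjusted p = 7.1e-04 and 0.012). Ttk, the checkpoint kinase also called Mps1, had 39.9, 37.1 and 37.9 CPM in IL-12 80%TCM, against 49.9, 51.2 and 50.2 CPM in IL-12. It was 1.32-fold lower there with no overlap (edgeR adjusted p = 0.0013), whereas in IL-2 it had 52.0, 48.5 and 43.5 CPM in IL-2 80%TCM, against 54.3, 50.2 and 57.8 CPM in IL-2, which overlapped and did not pass (log2 fold change -0.17 ± 0.07, adjusted p = 0.12). Bub1, a kinetochore kinase, likewise fell in IL-12 (log2 fold change -0.30 ± 0.073, edgeR adjusted p = 0.0085) and not in IL-2 (log2 fold change -0.18 ± 0.073, adjusted p = 0.13). Replicates of equal number deviated together in the IL-2 groups, but replicates 1 and 2 did so across numbers as well (correlations of 0.52 and 0.564). With a term for the replicate number in these groups, the replicate block, 33 of the 39 genes fell in IL-2, where 14% of all genes did. Bub1, Ttk, Cdk1, Aurkb and Ect2 were the 5 added (edgeR adjusted p 0.0077 to 0.045, where the alternatives of these 5 genes ran from 0.0077 to 0.61).

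Among the 3 anaphase genes, Cdc20 and Espl1 fell in both cytokines and Ube2c in neither. Cdc20, the activator of the APC/C in mitosis, had 176, 176 and 172 CPM in IL-12 80%TCM, against 238, 239 and 220 CPM in IL-12. It had 169, 177 and 164 CPM in IL-2 80%TCM, against 203, 201 and 212 CPM in IL-2. The groups did not overlap, and Cdc20 had the smallest p of the 39 genes in IL-12 (log2 fold change -0.41 ± 0.05, edgeR adjusted p = 9.2e-05), with log2 fold change -0.27 ± 0.05 in IL-2 (adjusted p = 0.0033). Espl1 encodes separase, the protease that opens cohesin, and fell 1.28-fold in IL-2 (edgeR adjusted p = 0.0052) and 1.18-fold in IL-12 (adjusted p = 0.02). The IL-12 call of Espl1 was lost without replicate 2 of either group (adjusted p 0.059 and 0.061). Ube2c, the ubiquitin-conjugating enzyme that works with the APC/C, had 154, 172 and 156 CPM in IL-12 80%TCM, against 166, 166 and 154 CPM in IL-12. Under IL-2 the same gene had 122, 156 and 143 CPM in IL-2 80%TCM, against 140, 139 and 162 CPM in IL-2. Ube2c overlapped in both, with log2 fold changes of -0.02 ± 0.087 and -0.07 ± 0.087.

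The 5 centromere and kinetochore genes were split, with Ndc80, Nuf2 and Cenpe called lower in both cytokines and Cenpa and Cenpf in neither. Ndc80, the microtubule-binding subunit of the kinetochore, had 95.7, 91.4 and 82.7 CPM in IL-12 80%TCM, against 134, 135 and 134 CPM in IL-12. In IL-2 it had 99.4, 99.5 and 83.9 CPM in IL-2 80%TCM, against 127, 123 and 139 CPM in IL-2. This was the largest decrease among the 39 genes in each cytokine, 1.50-fold in IL-12 (log2 fold change -0.58 ± 0.076, edgeR adjusted p = 1.5e-04) and 1.37-fold in IL-2 (log2 fold change -0.46 ± 0.075, adjusted p = 0.0018). Nuf2, the partner of Ndc80 in the same complex, fell less, with log2 fold change -0.29 ± 0.066 (edgeR adjusted p = 0.0059) in IL-12 and log2 fold change -0.22 ± 0.066 (adjusted p = 0.039) in IL-2. The IL-2 call of Nuf2 held in 8 of 21 alternatives and was lost without any single library other than IL-2 replicate 3 and IL-2 80%TCM replicate 1, at adjusted p of 0.057 to 0.17. The log2 fold change of Nuf2 was -0.13 without IL-2 80%TCM replicate 3. Cenpe, a kinetochore motor, fell 1.19-fold in IL-12 and 1.24-fold in IL-2 (edgeR adjusted p = 0.027 and 0.016), and its IL-12 call was lost without IL-12 replicate 1 or 2 or IL-12 80%TCM replicate 2 or 3 (adjusted p 0.054 to 0.076).

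Cenpa, the histone variant that marks the centromere, had 269, 279 and 283 CPM in IL-12 80%TCM, against 281, 303 and 284 CPM in IL-12. In IL-2 it had 288, 297 and 260 CPM in IL-2 80%TCM, against 256, 268 and 301 CPM in IL-2. The libraries overlapped in both cytokines, and the log2 fold changes were -0.06 ± 0.067 and 0.04 ± 0.067. Without replicate 3 of both IL-2 groups Cenpa was higher with TCM in IL-2 (log2 fold change 0.16, edgeR adjusted p = 0.019, alternatives 0.019 to 1). Cenpf, a large kinetochore protein, had -0.10 ± 0.1 in IL-12 and -0.18 ± 0.1 in IL-2 and was also not called (edgeR adjusted p = 0.5 and 0.27).

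All 7 spindle motors and microtubule proteins fell in both cytokines, with medians of -0.33 in IL-12 and -0.28 in IL-2. Kif2c (MCAK), a kinesin that takes microtubules apart at the centromere, had 96.5, 91.7 and 93.0 CPM in IL-12 80%TCM, against 133, 133 and 128 CPM in IL-12, and 89.7, 88.9 and 81.2 CPM in IL-2 80%TCM, against 104, 95.6 and 109 CPM in IL-2. Kif4, the chromokinesin, had 117, 108 and 99.1 CPM in IL-2 80%TCM, against 143, 139 and 149 CPM in IL-2. In both genes every library with TCM lay below every library without. Kif2c was 1.40-fold lower in IL-12 (log2 fold change -0.48 ± 0.06, edgeR adjusted p = 1.0e-04) and 1.19-fold lower in IL-2 (log2 fold change -0.25 ± 0.06, adjusted p = 0.014), where the call was lost without IL-2 replicate 1 (adjusted p = 0.057, alternatives 0.0014 to 0.1). Kif4 had the smallest p of the 39 in IL-2 (log2 fold change -0.41 ± 0.061, edgeR adjusted p = 9.7e-04) and log2 fold change -0.33 ± 0.061 in IL-12 (adjusted p = 0.0016). Kif11 (Eg5), which pushes the spindle poles apart, fell to 279 ± 7.25 CPM in IL-12 80%TCM, against 368 ± 15.3 CPM in IL-12, and to 265 ± 26.3 CPM in IL-2 80%TCM, against 341 ± 20 CPM in IL-2 (mean ± SD, n = 3 each). Kif15, Tpx2, Nusap1 and Hmmr, which bundle or nucleate spindle microtubules or move along them, fell 1.17-fold to 1.27-fold in IL-12 and 1.16-fold to 1.22-fold in IL-2. The IL-2 call of Hmmr (edgeR adjusted p = 0.031) was lost without IL-2 replicate 1 or 3 or any of the 3 IL-2 80%TCM libraries (adjusted p 0.050 to 0.065).

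Of the 5 midzone and cytokinesis genes 4 fell in IL-12 and 3 in IL-2. Kif20a (MKLP2), which carries the passenger complex to the midzone, had 112, 110 and 102 CPM in IL-12 80%TCM, against 162, 154 and 154 CPM in IL-12. Its IL-2 levels were 101, 104 and 97.6 CPM in IL-2 80%TCM, against 128, 122 and 149 CPM in IL-2. Kif23 (MKLP1), a subunit of centralspindlin, had 139, 127 and 132 CPM in IL-12 80%TCM, against 175, 176 and 174 CPM in IL-12, and 144, 142 and 130 CPM in IL-2 80%TCM, against 173, 169 and 183 CPM in IL-2. Neither gene overlapped in either cytokine. Kif20a was 1.45-fold lower in IL-12 and 1.32-fold lower in IL-2 (edgeR adjusted p = 1.6e-04 and 0.0027), and Kif23 1.32-fold and 1.26-fold (adjusted p = 2.1e-04 and 0.0016). Prc1, which crosslinks midzone microtubules, fell 1.23-fold and 1.30-fold in the same order. Ect2, the exchange factor that activates RhoA at the cleavage site, fell in IL-12 (log2 fold change -0.35 ± 0.084, edgeR adjusted p = 0.0078) and missed the threshold in IL-2 (log2 fold change -0.26 ± 0.084, adjusted p = 0.052). Without IL-2 replicate 2 it passed there (adjusted p = 0.035, alternatives 0.0077 to 0.2). Anln, the anillin scaffold of the contractile ring, had -0.15 ± 0.079 in IL-12 and -0.09 ± 0.079 in IL-2 and was not called in either (edgeR adjusted p = 0.17 and 0.52).

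Of the 6 chromosome structure genes, Top2a, Mki67, Smc2, Ncapg and Ncaph fell in both cytokines and Smc4 in neither. Top2a, the DNA topoisomerase II that untangles sister chromosomes, had 1280, 1210 and 1130 CPM in IL-2 80%TCM, against 1570, 1500 and 1740 CPM in IL-2. Smc2, the ATPase core of condensin, had 310, 282 and 299 CPM in IL-12 80%TCM, against 407, 387 and 386 CPM in IL-12. The libraries did not overlap in either gene, and both fell in both cytokines (Top2a: log2 fold change -0.32 ± 0.068 in IL-12 and log2 fold change -0.41 ± 0.068 in IL-2, Smc2: log2 fold change -0.41 ± 0.066 and log2 fold change -0.34 ± 0.066). Mki67, which encodes the proliferation marker Ki-67 that coats mitotic chromosomes, fell 1.26-fold in each cytokine (edgeR adjusted p = 0.0083 in IL-12 and 0.016 in IL-2). The IL-2 call of Mki67 was lost in the fit on the IL-2 groups alone (edgeR adjusted p = 0.089). The condensin I subunits Ncapg and Ncaph fell 1.29-fold and 1.24-fold in IL-12 and 1.23-fold and 1.19-fold in IL-2, and the IL-2 call of Ncapg was lost without IL-2 replicate 1 (edgeR adjusted p = 0.056, alternatives 0.0011 to 0.11).

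The decrease with TCM was larger between the replicates 3 of the IL-2 groups than between the other libraries. The median log2 ratio over the 39 genes, TCM over no TCM in libraries of equal replicate number, was -0.20, -0.15 and -0.47 for replicates 1, 2 and 3 in IL-2, with 37, 33 and 39 genes lower. In IL-12 it was -0.32, -0.38 and -0.30, with 39, 38 and 38 genes lower. Replicate 3 of IL-2 80%TCM was below the mean of its 2 fellow libraries in 35 of the 39 genes (median log2 difference -0.14), and replicate 3 of IL-2 was above its fellows in 37 (median 0.17). The same 2 libraries carried the high glycolysis and hypoxia levels given above, and the part of that difference in these ratios was not tested. Summed platelet and megakaryocyte markers also moved with TCM, at 24.6 to 30.8 CPM in IL-12 80%TCM, against 59.8 to 70.8 CPM in IL-12, and at 43.7 to 57.0 CPM in IL-2 80%TCM, against 107 to 130 CPM in IL-2. All 6 of the 7 platelet markers that were tested fell in both cytokines, Gp1bb was at 0 in every library, and their part in the result was not tested. CD4 T cell markers summed to 3.35 to 3.44 CPM in IL-12 80%TCM, against 1.43 to 1.82 CPM in IL-12, and to 4.22 to 6.22 CPM in IL-2 80%TCM, against 2.82 to 3.33 CPM in IL-2. B cell markers summed to 8.49 to 9.57 CPM in IL-12 80%TCM, against 6.24 to 7.95 CPM in IL-12, and overlapped between IL-2 80%TCM and IL-2, and 1 of 2 tested genes of each list rose with TCM in each cytokine. Myeloid markers summed to at least 10.1 CPM in IL-12 80%TCM, against 6.36 to 8.10 CPM in IL-12, and to 10.8 to 18.1 CPM in IL-2 80%TCM, against 9.38 to 12.9 CPM in IL-2. The part of these low signals was not tested either.

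**Figure D3:**
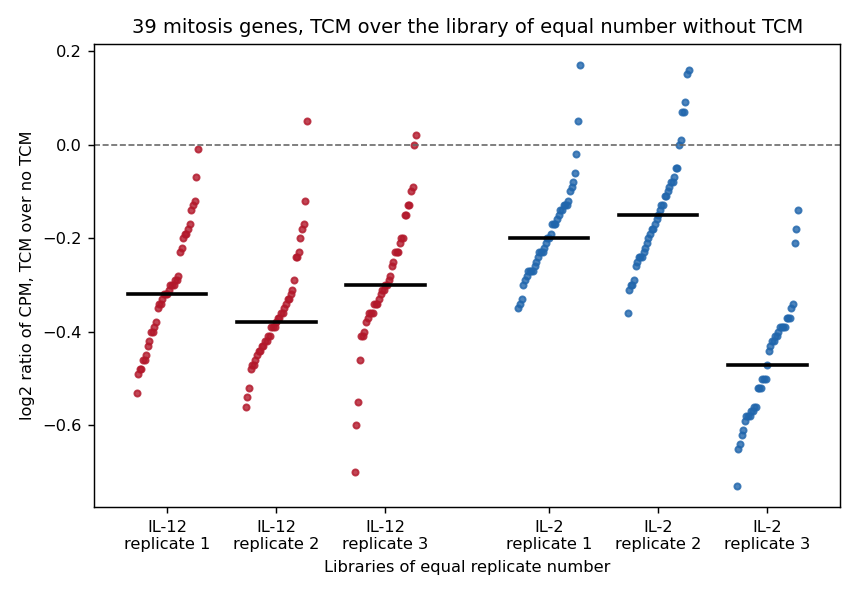
Log2 ratio of CPM, TCM over no TCM, for each of the 39 genes (points) in libraries of equal replicate number, in IL-12 (red) and IL-2 (blue). Black bars are medians, which run from -0.30 to -0.38 in IL-12 and are -0.20, -0.15 and -0.47 in IL-2.

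Whether TCM acted differently in the 2 cytokines was tested as the difference of its effect, IL-12 minus IL-2. None of the 39 genes was called in edgeR, where 0.39% of all genes were called lower and 1.19% higher, and none by DESeq2. At an unadjusted p below 0.05 there were 3, all with a stronger decrease in IL-12: Kif2c (log2 fold change -0.23 ± 0.084), Ttk (log2 fold change -0.23 ± 0.1) and Ccnb1 (log2 fold change -0.23 ± 0.11). Their edgeR adjusted p were 0.2, 0.32 and 0.34. These counts moved with the IL-2 libraries that stand apart. Without IL-2 80%TCM replicate 3, 4 of the 39 were called (Kif2c, Ttk, Ccnb1 and Smc4), where 3.06% of all genes were called lower. Without both of the replicates 3, 15 of the 39 were called, all with the stronger decrease in IL-12, where 6.24% of all genes were, and the median difference of the 39 was -0.18 against -0.07 with all libraries. With the replicate block in IL-2, Kif2c alone was called, where 4.14% of all genes were called lower (edgeR adjusted p = 0.049, alternatives 0.001 to 0.34).

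The second question was how IL-12 compared with IL-2. Without TCM, 16 of the 39 genes were higher in IL-12 and 1, Smc4, was lower. That is 41.0% of the 39 called higher, close to the 39.6% among genes at least as abundant, and 22.1% of all genes tested were called higher and 23% lower. With TCM, 9 were higher and 2 lower, which is 23.1% called higher, below the 33.9% among genes at least as abundant (19.5% of all genes were higher and 19.4% lower). The median log2 fold change was 0.14 without TCM and 0.11 with it, beside -0.01 over all genes in both. With both replicates 3 left out the counts were 26 higher and 1 lower without TCM, where 26.3% of all genes were higher and 26% lower, and 12 higher and 6 lower with TCM, where 23.5% were higher and 24.5% lower. These comparisons use the same libraries as the TCM comparisons, so the 2 kinds of result are not independent. Platelet markers were also lower in IL-12 than in IL-2, by 5 of 6 tested genes in each medium, as were CD4 markers by 2 of 2 in each, B cell markers by 2 of 2 with TCM and 1 of 2 without, and erythroid markers by 1 of 2 with TCM and 2 of 2 without. NK cell marker sums were instead higher in IL-12 without TCM, at 23.9 to 30.1 CPM, against 10.8 to 13.0 CPM in IL-2. With TCM they were 24.7 to 28.6 CPM in IL-12, against 11.8 to 17.9 CPM in IL-2. Of the 2 NK cell genes tested, 1 was lower and 1 higher in IL-12 in each medium. The part of all these markers in the counts of the 39 genes was not tested.

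In both media 9 genes were higher in IL-12, namely Aurka, Aurkb, Birc5, Ccna2, Ncaph, Prc1, Smc2, Top2a and Tpx2. Genes higher in both media were not counted over all genes or over those at least as abundant. In each medium alone the share called higher was close to or below that of the genes at least as abundant, as given above. Both lists of calls also rest on the same spread per gene. The overlap is therefore not read as a trait of the mitotic genes, and the values below describe single genes. Top2a had 1740, 1540 and 1620 CPM in IL-12 80%TCM, against 1280, 1210 and 1130 CPM in IL-2 80%TCM, and 2110, 2020 and 1990 CPM in IL-12, against 1570, 1500 and 1740 CPM in IL-2. These libraries did not overlap, with log2 fold change 0.43 ± 0.068 with TCM and log2 fold change 0.34 ± 0.068 without (edgeR adjusted p = 2.1e-04 and 0.0011). Aurka, which TCM left uncalled, had 92.0, 88.8 and 86.8 CPM in IL-12 80%TCM, against 65.4, 69.1 and 70.3 CPM in IL-2 80%TCM. Without TCM it had 104, 105 and 96.3 CPM in IL-12, against 70.0, 65.8 and 89.0 CPM in IL-2. It was again apart in both, at log2 fold change 0.39 ± 0.091 with TCM and log2 fold change 0.44 ± 0.09 without (edgeR adjusted p = 0.0045 and 0.0014). Prc1 had 136, 129 and 136 CPM in IL-12 80%TCM, against 107, 104 and 99.5 CPM in IL-2 80%TCM, and 168, 169 and 159 CPM in IL-12, against 126, 122 and 156 CPM in IL-2. Tpx2 had 300, 290 and 283 CPM in IL-12 80%TCM, against 246, 235 and 237 CPM in IL-2 80%TCM, and 351, 340 and 332 CPM in IL-12, against 283, 278 and 316 CPM in IL-2. In both genes every IL-12 library lay above every IL-2 library of the same medium, at log2 fold change 0.37 ± 0.079 (Prc1) and 0.28 ± 0.055 (Tpx2) with TCM and 0.29 ± 0.078 and 0.22 ± 0.055 without (edgeR adjusted p = 0.0021, 0.0012, 0.0079 and 0.0049 in that order). Ncaph had 134, 128 and 135 CPM in IL-12 80%TCM, against 116, 115 and 107 CPM in IL-2 80%TCM, and 170, 165 and 156 CPM in IL-12, against 132, 129 and 139 CPM in IL-2, again with no overlap. Ncaph, Birc5 and Ccna2 were higher by 0.23, 0.22 and 0.21 on the log2 scale with TCM and by 0.29, 0.30 and 0.31 without. Several of the weaker calls rested on single libraries. With TCM, Smc2 (log2 fold change 0.18 ± 0.066, edgeR adjusted p = 0.042) held in 10 of 20 alternatives and was lost without any single library other than replicates 2 and 3 of IL-2 and replicate 2 of IL-12 80%TCM (adjusted p 0.051 to 0.16). Ccna2 (adjusted p = 0.018) was lost without IL-2 80%TCM replicate 3 or any IL-12 80%TCM library (adjusted p 0.055 to 0.073). Aurkb was lost without IL-12 80%TCM replicate 3 (adjusted p = 0.059, alternatives 0.0036 to 0.059) and Birc5 without IL-12 80%TCM replicate 2 (adjusted p = 0.068, alternatives 0.0055 to 0.068). Ube2c and Nuf2, not called with TCM, passed without IL-2 80%TCM replicate 2 (Ube2c, adjusted p = 0.029, alternatives 0.023 to 0.38) and without IL-2 80%TCM replicate 1 (Nuf2, adjusted p = 0.043, alternatives 0.036 to 0.34).

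Higher without TCM but not called with it were Kif2c, Ccnb1, Cdk1, Cdc20, Nuf2, Kif20a and Melk. Kif2c had 133, 133 and 128 CPM in IL-12, against 104, 95.6 and 109 CPM in IL-2. Ccnb1 had 231, 218 and 216 CPM in IL-12, against 163, 163 and 188 CPM in IL-2. In both, all IL-12 libraries lay above all IL-2 libraries (log2 fold change 0.35 ± 0.059 and log2 fold change 0.37 ± 0.075, edgeR adjusted p = 3.8e-04 and 0.0013). With TCM the same genes had 0.11 ± 0.06 and 0.14 ± 0.076, and the difference between the media is the one tested above. Nuf2 had 97.5, 93.9 and 96.0 CPM in IL-12 80%TCM, against 91.7, 89.1 and 75.7 CPM in IL-2 80%TCM, and 120, 118 and 113 CPM in IL-12, against 103, 98.5 and 97.9 CPM in IL-2, without overlap in either medium. The calls without TCM of Melk (log2 fold change 0.17 ± 0.062), Aurkb (log2 fold change 0.18 ± 0.059) and Nuf2 (log2 fold change 0.23 ± 0.066) each depended on single libraries: Melk fell short without either of replicates 1 and 2 of IL-12 or IL-2 (edgeR adjusted p 0.053 to 0.13), Aurkb without IL-2 replicate 2 or IL-12 replicate 1 or 2 (adjusted p 0.051 to 0.071) and Nuf2 without IL-12 replicate 1 (adjusted p = 0.051, alternatives 3.8e-04 to 0.051). None of the 3 spindle checkpoint genes was called higher in IL-12 in either medium, which is too few genes to set the role apart. With TCM the anaphase and the centromere and kinetochore genes had none higher either. Without the replicates 3 of the IL-2 groups, Bub1 and Bub1b were higher in IL-12 without TCM (edgeR adjusted p = 0.034 and 0.011). In that fit Bub1 was lower in IL-12 with TCM (adjusted p = 0.019). Bub1b had log2 fold changes of 0.03 ± 0.057 with TCM and 0.13 ± 0.057 without, where it passed when IL-2 80%TCM replicate 3 was left out (edgeR adjusted p = 0.025, alternatives 0.011 to 0.19). Ttk, called lower with TCM, had 39.9, 37.1 and 37.9 CPM in IL-12 80%TCM, against 52.0, 48.5 and 43.5 CPM in IL-2 80%TCM (log2 fold change -0.33 ± 0.072, edgeR adjusted p = 0.0028).

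**Figure D4:**
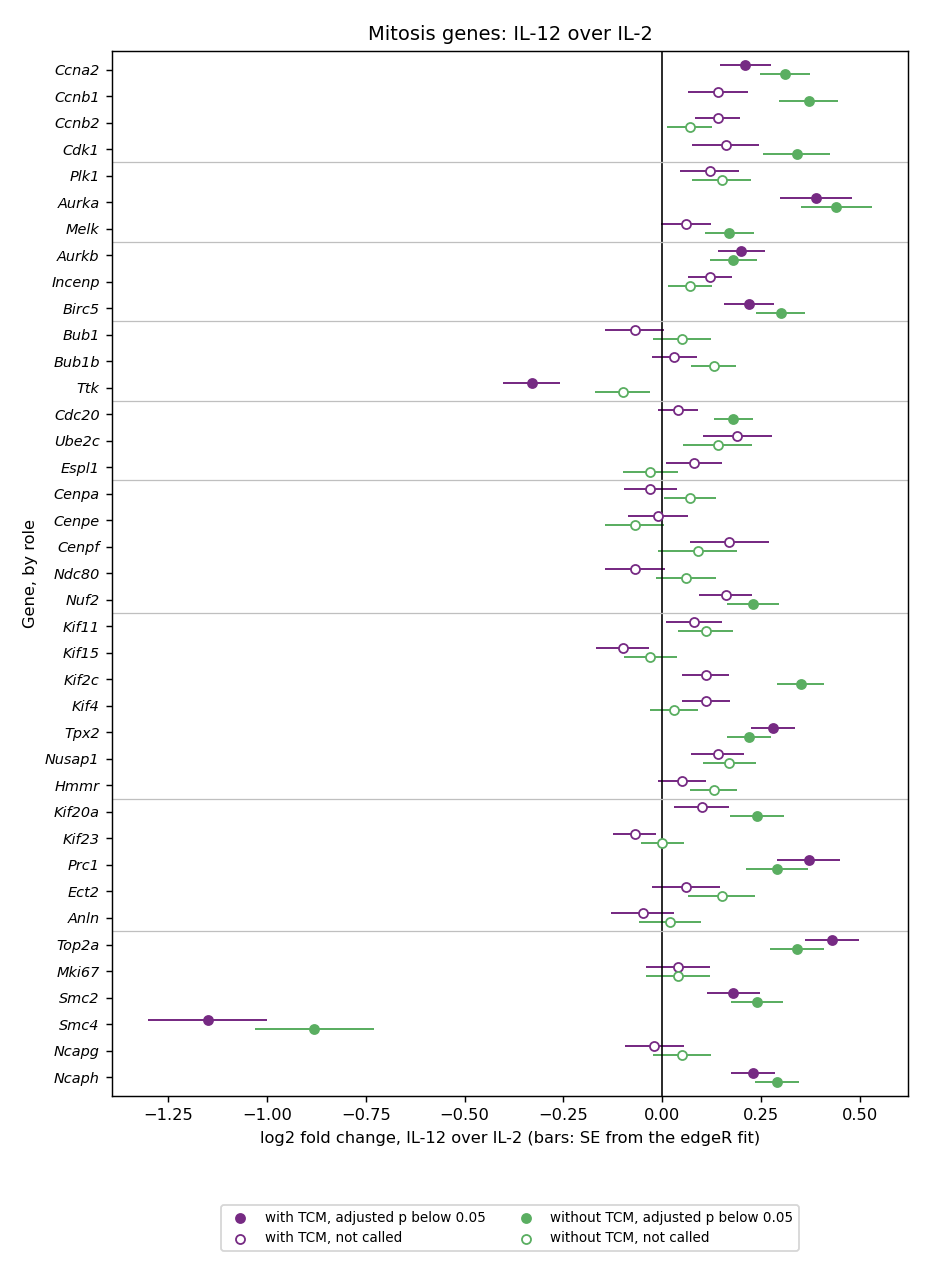
Log2 fold change of each of the 39 genes, IL-12 over IL-2 (x axis, bars are the standard error of the fit), with TCM (purple, upper point of each row) and without TCM (green, lower point). Filled points passed the test. Most points lie between -0.1 and 0.44, and Smc4 lies apart at -1.15 with TCM and -0.88 without.

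Smc4 stood out from its complex. It encodes the second ATPase subunit of condensin, which pairs with Smc2 in every condensin, and was at 581, 570 and 588 CPM in IL-12 80%TCM, against 1470, 1490 and 904 CPM in IL-2 80%TCM. Without TCM it was at 741, 767 and 720 CPM in IL-12, against 1490, 1420 and 1190 CPM in IL-2. Every IL-12 library lay below every IL-2 library, and the low IL-2 80%TCM value was replicate 3. Smc4 was 2.22-fold lower in IL-12 with TCM (log2 fold change -1.15 ± 0.15, edgeR adjusted p = 3.6e-05) and 1.84-fold lower without (log2 fold change -0.88 ± 0.15, adjusted p = 3.2e-04), and it kept the call in 20 of 20 alternatives in each. Smc2 and Ncaph were higher in IL-12 in both media, and Ncapg was not called, with -0.02 ± 0.075 and 0.05 ± 0.074. The ratio of Smc4 to Smc2 CPM, which compares libraries and not the amounts of the 2 mRNAs, was 1.88 to 2.02 in IL-12 80%TCM, against 3.66 to 5.50 in IL-2 80%TCM, and 1.82 to 1.98 in IL-12, against 3.26 to 4.63 in IL-2. With TCM in IL-12, Smc4 had log2 fold change -0.36 ± 0.14 and no overlap but missed the threshold (edgeR adjusted p = 0.081), and it passed without IL-2 80%TCM replicate 3 (adjusted p = 0.0011, alternatives 1.2e-08 to 0.18). In IL-2 it had log2 fold change -0.09 ± 0.14 with TCM (adjusted p = 0.74).

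The genes next to Smc4 in the GENCODE annotation of the mouse were looked at after its values were seen. Ift80, a subunit of the ciliary transport complex, had 83.2, 74.3 and 82.6 CPM in IL-12 80%TCM, against 253, 239 and 188 CPM in IL-2 80%TCM. Without TCM it had 78.8, 82.6 and 81.4 CPM in IL-12, against 229, 213 and 183 CPM in IL-2. Ift80 was 2.83-fold and 2.58-fold lower in IL-12 (log2 fold changes -1.50 ± 0.11 with TCM and -1.37 ± 0.10 without, edgeR adjusted p = 1.1e-07 and 3.2e-07). Trim59 was 2.04-fold lower with TCM and 1.72-fold lower without (log2 fold changes -1.03 ± 0.089 and -0.78 ± 0.088, adjusted p = 8.9e-07 and 1.2e-05). Kpna4 had log2 fold changes of -0.21 ± 0.053 with TCM (adjusted p = 0.0072) and -0.10 ± 0.053 without (adjusted p = 0.15). Il12a, which encodes a subunit of IL-12 itself, averaged 0.343 CPM in IL-12 80%TCM, against 2.99 CPM in IL-2 80%TCM, and 0.243 CPM in IL-12, against 1.59 CPM in IL-2, and was called lower in both media (adjusted p = 1.5e-05 and 5.8e-05). The gene 1110032F04Rik overlapped between the groups and was not called, with -0.23 ± 0.23 with TCM (adjusted p = 0.45) and -0.17 ± 0.22 without (adjusted p = 0.56), and it passed without the replicates 3 (adjusted p = 6.4e-04 and 0.0036), as did Kpna4 without TCM (adjusted p = 0.0092). Arl14 was not tested. The microRNA genes Mir15b and Mir16-2 lie within Smc4 in the annotation and had too few counts to be tested.

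**Figure D5:**
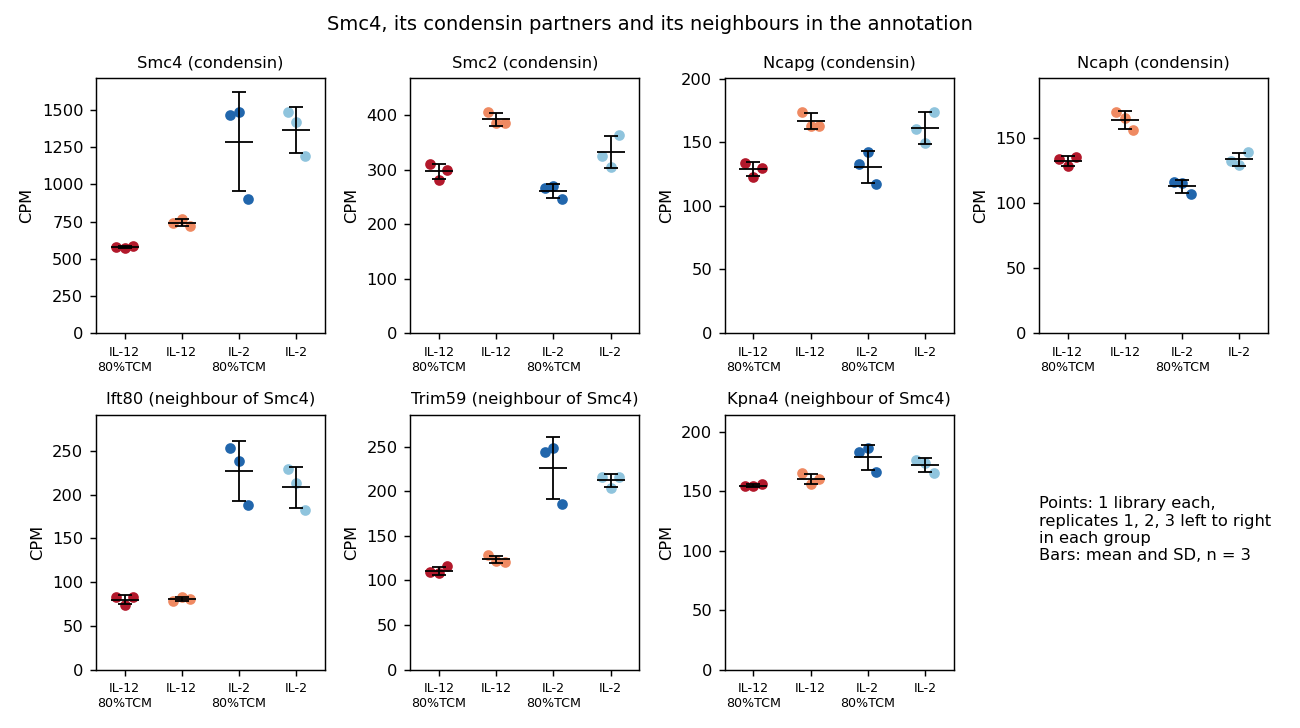
CPM per library (points, replicates 1 to 3 from left to right in each group) with mean and SD (n = 3) for Smc4, the condensin subunits Smc2, Ncapg and Ncaph, and Ift80, Trim59 and Kpna4, the genes near Smc4 in the annotation. Smc4 lies at 570 to 767 CPM under IL-12 with or without TCM and at 904 to 1490 CPM under IL-2, and Ift80 and Trim59 split the same way.

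Other genes of the pathway were described from lists chosen by function, with earlier results of these data known. Beside them stand 14.2% of all genes lower with TCM in IL-12 (23.8% of those at least as abundant as the lowest of the 39) and 7.82% in IL-2 (12%). Of 60 further mitotic genes, all tested, 45 fell with TCM in IL-12 (median log2 fold change -0.29) and 28 in IL-2 (median -0.20), and none rose. Without the replicates 3 of the IL-2 groups these counts were 53 and 24, where 22.9% and 12.4% of all genes were lower. Hjurp, the chaperone of Cenpa, fell 1.35-fold in IL-2 (log2 fold change -0.43 ± 0.074, edgeR adjusted p = 0.0022), and Fbxo5 (Emi1), an inhibitor of the APC/C, fell 1.44-fold in IL-12 (log2 fold change -0.53 ± 0.064, adjusted p = 9.2e-05).

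Cohesin, which holds sister chromosomes together, had 6 of 12 genes lower and 1 higher in IL-12 and 2 lower and 1 higher in IL-2 (medians -0.18 and -0.14), and 8 and 3 lower without the replicates 3. Of 15 core APC/C subunits 5 were lower in IL-12 and 2 in IL-2 (medians -0.07 and -0.02), and 7 and 3 without the replicates 3. In IL-2 the shares of cohesin and of the APC/C are near the background, and nothing is read from them. Genes of S phase, the stage before G2, were lower in 19 of 20 cases in IL-12 (median -0.50) and in 17 of 20 in IL-2 (median -0.35), and in 20 and 18 without the replicates 3. Mcm5, a subunit of the replicative helicase, was 1.67-fold lower in IL-12 (edgeR adjusted p = 4.9e-06) and 1.48-fold lower in IL-2 (adjusted p = 9.2e-05).

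In IL-12 over IL-2, 10 of the 20 S phase genes were higher with TCM and 17 without, led by Pcna (log2 fold change 1.07 ± 0.069 and log2 fold change 1.21 ± 0.069), beside 19.5% and 22.1% of all genes. Without the replicates 3, 10 were higher and 1 lower with TCM, and 18 higher without. The 60 mitotic genes had 9 higher and 5 lower with TCM, and 18 higher and 4 lower without. With the replicates 3 left out they had 12 higher and 13 lower with TCM, where 23.5% of all genes were higher and 24.5% lower, and 31 higher and 4 lower without, where 26.3% were higher and 26% lower. With TCM, which direction held more of these genes thus changed with these 2 libraries. The lists were compared by their counts and medians only.

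Several of the 39 genes share genomic ground with others. In the annotation 13 of them overlap another tested gene, 10 of them on the opposite strand, among them Ccna2 with Exosc9, Cdc20 with Elovl1, Kif20a with Cdc23, Nusap1 with Oip5, Prc1 with Rccd1, Ncapg with Lcorl and Kif4 with Pdzd11. The library kit was directional, but how the counting used strand was not stated in the labels, so reads of such pairs may have been shared. Processed copies of Ccnb1 and Ccnb2 averaged 2.04 and 1.39 CPM, and part of the reads of each gene may have been split with them.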

How the data were processed

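RNA of 12 libraries was sequenced, and the authors deposited a table of gene counts (whole reads per gene, not normalized) together with a signal file per sample, in which the gene counts were divided by 1 constant per library. They were read to compare that constant with the scaling used here, which differed by a ratio of 0.975 to 1.01. The limma alternatives named below were fitted on these deposited values, and the other fits on the counts. The submitters' processing notes name STAR 2.7.7a and edgeR, and build GRCh38 although the gene identifiers are from mouse. How the counting treated strand was not stated.

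From the counts, edgeR 4.0.16 in R 4.3.3 with limma 3.58.1 fitted 1 mean per group over all 12 libraries (TMM scaling, quasi-likelihood test, 8 residual degrees of freedom, common biological coefficient of variation 0.104). The default filter for low counts (minimum 10, total 15) kept 15897 of 55487 genes, and p-values were adjusted by Benjamini-Hochberg in each of 5 comparisons with a threshold of 0.05. CPM use TMM-scaled library sizes, and errors beside log2 fold changes are standard errors of the fit. The scripts were tested on simulated data. The 39 genes, the companion lists and the rule for genes shown by library were chosen with earlier results of these data known. By that rule the 5 genes with the smallest p-values in a comparison, and the 1 with the smallest in each role, have their libraries listed. Of 225 listed symbols 223 matched.

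Deviations from group means in log2 CPM correlated at 0.538, 0.521 and 0.737 between IL-2 80%TCM and IL-2 libraries of equal number. In IL-12 the values for equal numbers were 0.253, 0.060 and 0.072. In the IL-2 groups replicates 1 and 2 correlated across numbers as well (0.520 and 0.564), so the values do not show that equal numbers were pairs. The main fit took no pairs. Equal numbers were matched only in the replicate blocks and in the ratios between libraries of equal replicate number. Alternatives were DESeq2 (version 1.42.0) size factors and test, no filter, limma on log2(CPM + 1) or log2(CPM + 0.1), fits on 2 groups, replicate blocks, and leaving out each library or both replicates 3 of the IL-2 groups.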

Additional observations from a re-analysis of the deposited data

How the results depend on the processing

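The 3 libraries of each group limit the precision, and the replicates 3 of the IL-2 groups stand apart. The cause of each change below was not tested. Fits on 2 groups called 8 of the 39 with TCM in IL-2 (28 over 12 libraries) and 587 of all genes (2313), and 7133 of all genes with TCM in IL-12 (4617). Without both replicates 3 of the IL-2 groups, 27 and 18 of the 39 were called in IL-12 over IL-2 without and with TCM (17 and 11) and 15 for the difference of the TCM effect (0), and the counts over all genes were 3936 (TCM in IL-2), 7332 (TCM in IL-12) and 2105 (difference, 251). The difference had 779 calls with no filter and 543 with DESeq2. With each library left out, the counts of the 39 were 23 to 29 and 29 to 34 with TCM in IL-2 and IL-12, 14 to 22 and 8 to 12 in IL-12 over IL-2 without and with TCM, and 0 to 4 for the difference, and over all genes 1292 to 2938, 2931 to 5697, 5595 to 8153, 4910 to 6747 and 105 to 1164 in the same order.

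The replicate block in IL-2 called 33 of the 39 and 4442 of all genes with TCM in IL-2, and 1 and 1668 for the difference. The block over all 12 libraries called 29, 33, 17, 12 and 0 of the 39 and 2722, 4949, 7454, 6542 and 330 of all 15897 genes in the order above.

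The direction of small changes with TCM turned in some fits. With each library left out, the log2 fold change in IL-2 ran from -0.21 to 0.00 for Aurka (0.00 without IL-2 replicate 3), from -0.14 to 0.00 for Anln (0.00 without IL-2 replicate 3), from -0.14 to 0.03 for Ube2c (0.03 without IL-2 80%TCM replicate 1), from -0.00 to 0.10 for Cenpa (-0.00 without IL-2 replicate 1) and from -0.20 to 0.12 for Smc4 (0.12 without IL-2 80%TCM replicate 3), and in IL-12 from -0.08 to 0.00 for Ube2c (0.00 without IL-12 80%TCM replicate 1). Smc4 had 0.02 and Cenpa 0.16 in IL-2 without both replicates 3.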

Other observations

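Transcription control of the G2/M program moved with TCM in part. Of 20 regulators (MuvB core, B-Myb, FoxM1, E2F, DP and pocket proteins), 12 fell and 1 rose in IL-12 and 5 fell and none rose in IL-2, beside 14.2% of all genes lower and 14.8% higher in IL-12 and 7.82% lower and 6.73% higher in IL-2. Without the replicates 3 of the IL-2 groups the counts were 13 lower and 1 higher in IL-12 and 7 lower and 1 higher in IL-2. In that fit 22.9% of all genes were lower and 23.1% higher in IL-12, and 12.4% lower and 12.3% higher in IL-2. E2f7 and E2f8, repressors of E2F targets, fell by 0.57 ± 0.10 and 0.58 ± 0.079 on the log2 scale in IL-12 and by 0.58 ± 0.11 and 0.55 ± 0.079 in IL-2 (edgeR adjusted p 2.3e-04 to 0.0034). Mybl2, which encodes B-Myb, averaged 65.2 CPM in IL-12 80%TCM, against 89.0 CPM in IL-12, and 60.0 CPM in IL-2 80%TCM, against 78.2 CPM in IL-2, and fell in both (edgeR adjusted p = 0.0010 and 0.0061). Foxm1 had -0.14 ± 0.057 in each cytokine and was not called (edgeR adjusted p = 0.095 in IL-12 and 0.12 in IL-2). Rbl2, the pocket protein p130 of the DREAM complex, rose in IL-12, at 205 CPM in IL-12 80%TCM, against 156 CPM in IL-12 (log2 fold change 0.39 ± 0.075, edgeR adjusted p = 0.0020). In IL-2 Rbl2 had 0.16 ± 0.075 (adjusted p = 0.18) and was higher with the replicate block in IL-2 (adjusted p = 0.017) and without the replicates 3 (0.14, adjusted p = 0.048), over a range of 0.017 to 0.40.

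Tfdp2, a dimer partner of E2F factors, averaged 31.3 CPM in IL-12 80%TCM, against 65.5 CPM in IL-2 80%TCM, and 38.3 CPM in IL-12, against 69.9 CPM in IL-2. It was lower in IL-12 with and without TCM (log2 fold changes -1.06 ± 0.073 and -0.87 ± 0.071, edgeR adjusted p = 8.7e-08 and 5.7e-07). Of the 20 regulators 10 were higher and 1 lower in each medium, beside 19.5% of all genes higher with TCM and 22.1% without. Without the replicates 3, 9 were higher and 3 lower with TCM, where Rbbp4 and E2f2 were also lower (adjusted p = 0.025 and 0.0089), and 13 were higher and 1 lower without. In that fit 23.5% of all genes were higher and 24.5% lower with TCM, and 26.3% higher and 26% lower without. Of the 5 CDK inhibitors tested, 2 were higher and 1 lower in IL-12 in each medium, and with TCM 2 fell and 1 rose in IL-12 and 2 fell in IL-2. Without the replicates 3, 3 were higher and 2 lower in IL-12 over IL-2 with TCM, 3 higher and 1 lower without, and with TCM 3 fell and 1 rose in IL-2. Cdkn2d was higher in IL-12 (log2 fold changes 0.71 ± 0.053 with TCM and 0.60 ± 0.053 without, adjusted p = 2.1e-07 and 1.3e-06), and Cdkn2c fell with TCM by 0.70 ± 0.12 in IL-12 and 0.64 ± 0.12 in IL-2 (adjusted p = 8.6e-04 and 0.0035). Cdkn1b (p27) was lower in IL-12 (-0.20 ± 0.056 with TCM and -0.17 ± 0.056 without, adjusted p = 0.012 and 0.023). Cdkn2a, at 0.396 to 2.91 CPM on average, was higher in IL-12 (1.82 ± 0.30 with TCM and 1.66 ± 0.24 without, adjusted p = 3.6e-04 and 1.1e-04) and fell with TCM by 1.08 ± 0.24 in IL-12 and 1.25 ± 0.31 in IL-2 (adjusted p = 0.0044 and 0.018). All values of this section were chosen after they were seen.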
